A study of Mus musculus with 12 samples.

Results

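The 45 genes described here encode glutamate receptors and the proteins that hold them in the postsynaptic density, the protein mesh under the membrane of an excitatory synapse. They were found by symbol in a deposited table of read counts for 56748 mouse genes. All 45 were present, and all 45 were among the 17995 genes that passed the filter on low counts. They comprised 4 AMPA, 6 NMDA and 5 kainate receptor subunits, 6 metabotropic receptors, and 3 transmembrane auxiliary subunits of AMPA receptors. The scaffold side comprised 4 genes of the PSD-95 family, 4 SAPAP, 3 Shank and 3 Homer genes, 5 adhesion proteins and 2 subunits of the kinase CaMKII.

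RNA was sequenced from adult mouse forebrain in 4 groups of 3 libraries. The first group was knockout exposed before birth to valproic acid (VPA), the second knockout without VPA, the third wildtype exposed before birth to VPA, and the last wildtype without VPA. The genotype label of both knockout groups reads "htr3a Notch KO" and the series calls the animals Notch conditional knockouts. The sources used here do not say which Notch gene was deleted or by which driver, nor do they give the strain, the dose and timing of VPA, or whether each library came from its own animal. The p-values therefore measure the spread between these libraries. VPA is an antiepileptic drug that inhibits histone deacetylases, and rodents exposed to it in the womb are used as a model of autism.

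Glutamate opens AMPA receptors for fast excitatory transmission, and NMDA receptors when the cell is also depolarised, letting in the calcium that activates CaMKII. Kainate receptors tune excitability on both sides of the synapse. Metabotropic receptors signal through G proteins, mostly at the postsynaptic edge for Grm5 and at nerve terminals for Grm2, Grm4, Grm7 and Grm8. PSD-95 proteins bind receptor tails, SAPAP proteins link them to Shank, and Homer ties Shank to the group I metabotropic receptors. Several of these genes, Shank3 and Grin2b among them, are known risk genes for autism in humans.

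Library totals ran from 16887885 to 24944681 counts. The share of counts from mitochondrially encoded genes was 12.2% to 18.6%, and it was highest in exposed knockout replicate 1 (18.6%) and exposed wildtype replicate 3 (16.4%). Xist, which female cells transcribe from the inactive X chromosome, had at most 12 counts in exposed knockout replicate 3 and exposed wildtype replicate 3 and at least 5919 in each of the others. Both libraries lacking Xist were exposed to VPA. The receptor genes Notch1 to Notch4 had adjusted p-values of 1 between unexposed knockout and wildtype, with log2 fold changes between -0.29 and 0.17, so whole-tissue counts did not check the deletion. The cortical excitatory neuron marker Tbr1 was at 60.5 to 80.7 CPM (counts scaled to the effective library size) in the 12 libraries, whereas 6 of 8 markers of cerebellar neurons averaged under 1 CPM. The other cerebellar markers, Calb1 (64.6 to 98.1 CPM) and Pvalb (52.3 to 68 CPM), are also known from forebrain neurons.

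Transcript levels per length were compared first, as CPM per kilobase of annotated exon. Camk2a, the alpha subunit of CaMKII, stood highest at a mean of 677 CPM per kilobase over the 12 libraries, followed by the SAPAP gene Dlgap3 at 191 and Dlg4, which encodes PSD-95, at 84.3. The group III metabotropic receptor gene Grm8 was lowest at 0.987, below the kainate subunit gene Grik1 at 1.13. Within families the highest member held a mean share of 53% for Gria1 among AMPA subunits, 41.8% for Grin1, the obligatory NMDA subunit, and 80.9% for the high-affinity subunit Grik5 among kainate subunits. The corresponding shares were 38.7% for Grm3 among metabotropic receptors, 42.7% for Cacng8 among auxiliary subunits, 58.6% for Dlg4, 74.6% for Dlgap3, 50.3% for Shank1, 51.9% for Homer1, 53.8% for Nlgn2 and 90.8% for Camk2a. Each of these genes ranked first in its family by the mean over libraries. Second among NMDA subunits was Grin2c at 31.5%, above Grin2b (10.8%) and Grin2a (7.69%). Some of these ranks rest on the division by length. In CPM Grin2b (113 to 169, 24842 exonic bases) stood above Grin2c (61.8 to 101, 5037 bases). Likewise Grm5 (89.2 to 121 CPM) stood above Grm3 (46.4 to 59.3 CPM), and Gria1 (259 to 369 CPM) overlapped with Gria2 (312 to 395 CPM). Exon lengths come from an annotation on the build before that of the files, and isoform use can shift a level per length.

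**Figure D1:**
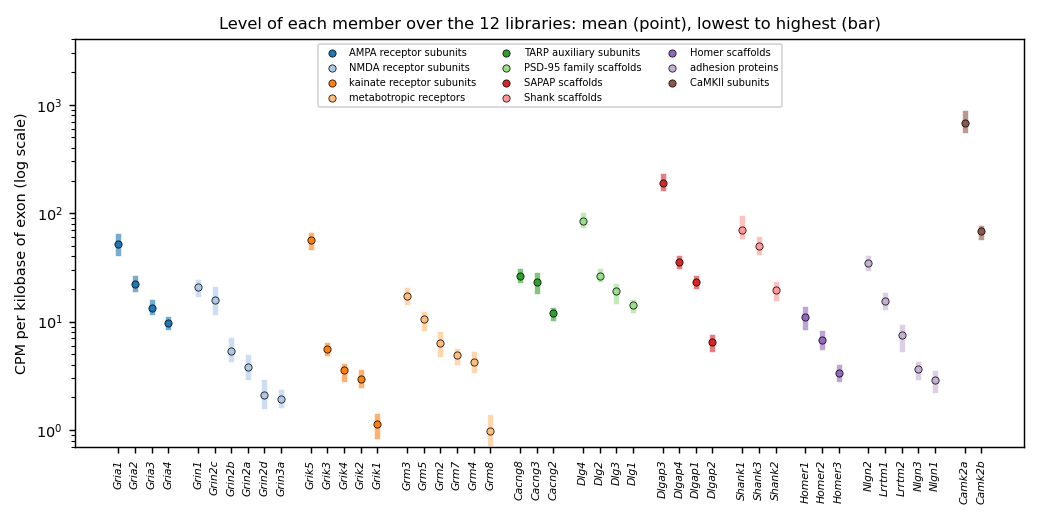
Level of each of the 45 genes as CPM per kilobase of exon on a log axis, grouped by family and ordered within it. Points are means over the 12 libraries and bars run from the lowest to the highest library. Levels span from 0.987 for Grm8 to 677 for Camk2a, and the bars are short beside the span of the levels.

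Genes that led their families by level without passing a test show the usual spread between libraries. Grin1 had 178, 211 and 206 CPM in exposed and 203, 201 and 175 CPM in unexposed knockout libraries, and 218, 226 and 206 CPM in exposed and 205, 199 and 191 CPM in unexposed wildtype libraries. The level of Dlg4 was 1271, 1138 and 1118 CPM in exposed against 1086, 1030 and 1099 CPM in unexposed knockout, and 1048, 1107 and 1158 CPM in exposed against 1159, 1152 and 1040 CPM in unexposed wildtype. In knockout, Cacng8 stood at 58, 66.3 and 62.9 CPM after VPA against 60.5, 61.5 and 57.7 CPM without it, and in wildtype at 64.5, 68.8 and 59.7 CPM after VPA against 59, 57.1 and 61.4 CPM without it. Exposed libraries lay above all unexposed ones for Grin1 in wildtype and for Dlg4 in knockout, and overlapped with them otherwise. The fitted log2 fold changes averaged over the genotypes were 0.08 for Grin1, 0.06 for Dlg4 and 0.09 for Cacng8, with adjusted p-values of 0.39, 0.584 and 0.311.

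Whether prenatal VPA left a mark on these genes in the adult forebrain was asked with both genotypes averaged. This comparison draws on all 12 libraries. In it 5 of the 45 genes passed edgeR's quasi-likelihood test at a Benjamini-Hochberg adjusted p under 0.05. That is 11.1% of the members, against 5.99% of all tested genes (1078 of 17995). The NMDA subunit gene Grin2d and the group II metabotropic receptor gene Grm2 rose (2 members, against 2.12% of all genes called higher). The kainate subunit gene Grik2, the group I metabotropic receptor gene Grm5 and the adhesion gene Lrrtm2 fell (3 members, against 3.87% called lower). Changes were small, at most 1.24-fold up and 1.22-fold down. In bulk tissue, fewer cells of a type and less RNA per cell cannot be told apart.

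Grin2d (ENSMUSG00000002771, chromosome 7) encodes the GluN2D subunit, which gives NMDA receptors slow kinetics and which in the adult forebrain is known mainly from interneurons. Grin2d had 15.1, 15.8 and 18.6 CPM in exposed and 12.3, 11.2 and 11.3 CPM in unexposed knockout libraries, and 13.9, 15.6 and 14.7 CPM in exposed and 14.8, 12.7 and 13.3 CPM in unexposed wildtype libraries. The exposed libraries were the highest in knockout without overlap, whereas in wildtype the ranges overlapped. Averaged over genotypes it rose 1.24-fold (log2 0.31 ± 0.08 SE, adjusted p = 0.0181). Within genotypes its log2 fold change was 0.51 ± 0.11 in knockout (adjusted p = 0.0593) and 0.11 in wildtype (adjusted p = 0.691). It shares 643 exonic bases with the opposite-strand gene Gm45441, and no source used here states whether counting was strand-specific.

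Grm2 (ENSMUSG00000023192, chromosome 9) encodes mGlu2, an inhibitory autoreceptor of glutamatergic terminals. The level of Grm2 was 37.6, 34.6 and 35.4 CPM in exposed against 34.3, 24.8 and 29.4 CPM in unexposed knockout, and 32.9, 31.7 and 35.3 CPM in exposed against 30.1, 25.2 and 24.6 CPM in unexposed wildtype. Exposed libraries were above unexposed ones in each genotype, although unexposed knockout replicate 1 reached the exposed wildtype range. The averaged rise was 1.23-fold (log2 0.30 ± 0.07 SE, adjusted p = 0.0153), with 0.28 in knockout and 0.32 in wildtype.

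Grik2 (ENSMUSG00000056073, chromosome 10) encodes GluK2, a main pore-forming kainate subunit. In knockout, Grik2 stood at 36, 34.3 and 35.3 CPM after VPA against 42.1, 45.9 and 38.4 CPM without it, and in wildtype at 37.9, 38.5 and 35.2 CPM after VPA against 44.2, 41.2 and 44.3 CPM without it. In each genotype all exposed libraries were below all unexposed ones. The averaged fall was 1.18-fold (log2 -0.24 ± 0.05 SE, adjusted p = 0.0129), with -0.26 in knockout and -0.22 in wildtype.

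Grm5 (ENSMUSG00000049583, chromosome 7) encodes mGlu5, the postsynaptic receptor tied to Shank through Homer. Grm5 had 89.2, 96.7 and 95 CPM in exposed and 111, 121 and 112 CPM in unexposed knockout libraries, and 107, 119 and 99.7 CPM in exposed and 105, 114 and 118 CPM in unexposed wildtype libraries. The knockout groups did not overlap and the wildtype groups did. Averaged over genotypes it fell 1.13-fold (log2 -0.17 ± 0.05 SE, adjusted p = 0.0458). The call was near the threshold and held in 10 of 23 alternatives (adjusted p 0.0242 to 0.211), with limma-voom among those in which it did not. By genotype its log2 fold change was -0.29 in knockout and -0.05 in wildtype, and 0.01 in wildtype without exposed wildtype replicate 3.

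Lrrtm2 (ENSMUSG00000071862, chromosome 18) encodes a postsynaptic partner of neurexins that helps hold AMPA receptors. The level of Lrrtm2 was 33.4, 41 and 40.1 CPM in exposed against 47.7, 51.1 and 51.8 CPM in unexposed knockout, and 48.6, 46.6 and 37.4 CPM in exposed against 46.8, 53.8 and 50.7 CPM in unexposed wildtype. Exposed knockout libraries lay below all unexposed knockout libraries. In wildtype the ranges overlapped, with exposed replicate 3 the lowest. The averaged fall was 1.22-fold (log2 -0.29 ± 0.07 SE, adjusted p = 0.0126), with -0.39 in knockout and -0.19 in wildtype. Lrrtm2 lies opposite to the more highly counted Ctnna1, with 95 exonic bases in common.

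**Figure D2:**
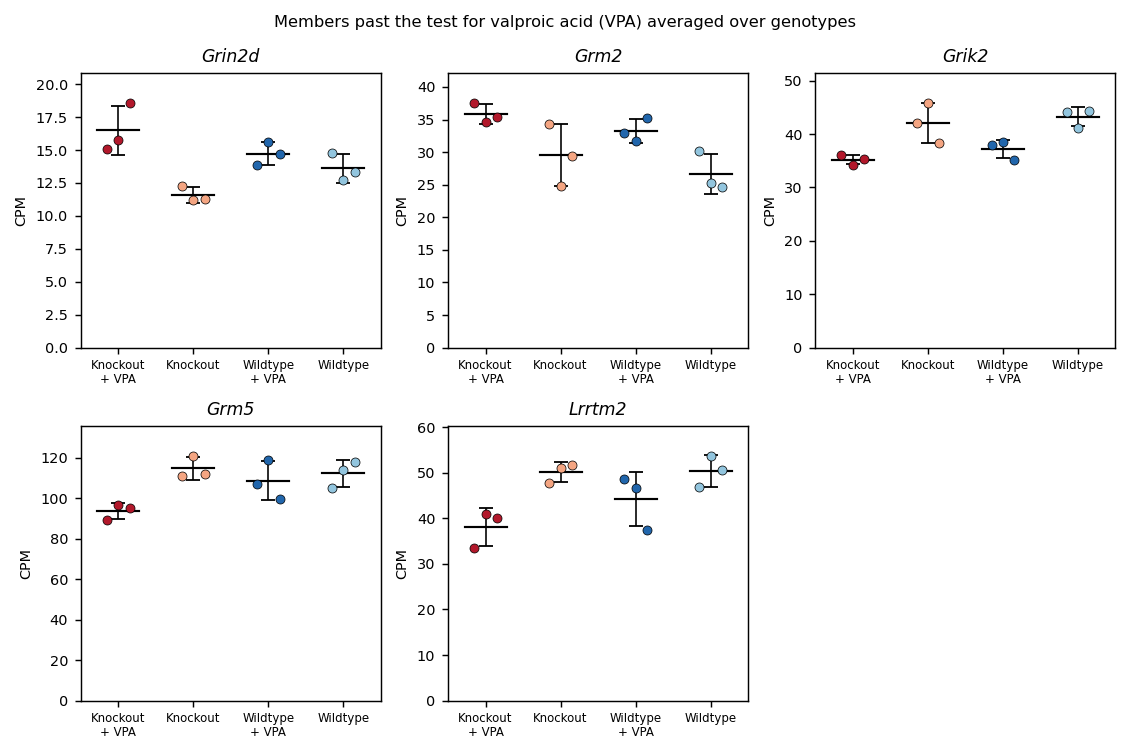
CPM of the 5 genes past the test for VPA averaged over genotypes, with a point for each library, the mean as a line and the SD as a bar, on axes that start at 0. Grm2 is higher and Grik2 lower in the exposed libraries of each genotype, while for Grin2d, Grm5 and Lrrtm2 the groups separate fully only in knockout.

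The stretches of 250 bases before the transcription start of the called genes are shown for 3 of them from the RefSeq promoter table, because VPA acts on chromatin and these genes moved in different directions. All lie on the minus strand of GRCm38.p6, at chr7:45866682-45866931 for Grin2d, chr9:106656110-106656359 for Grm2 and chr10:49788755-49789004 for Grik2, and are written 5′ to 3′ with each GC box (GGGCGG, searched on both strands) in capitals.
Grin2d: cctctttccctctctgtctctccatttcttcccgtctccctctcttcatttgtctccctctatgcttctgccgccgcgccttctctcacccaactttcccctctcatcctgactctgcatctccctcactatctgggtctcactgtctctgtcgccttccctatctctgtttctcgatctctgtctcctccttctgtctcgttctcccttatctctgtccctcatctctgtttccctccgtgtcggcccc
Grm2: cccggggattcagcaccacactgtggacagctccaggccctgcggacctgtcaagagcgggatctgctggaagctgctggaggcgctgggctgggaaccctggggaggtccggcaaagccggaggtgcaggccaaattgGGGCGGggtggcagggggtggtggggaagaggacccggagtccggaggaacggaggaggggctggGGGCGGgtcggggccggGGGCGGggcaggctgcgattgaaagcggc
Grik2: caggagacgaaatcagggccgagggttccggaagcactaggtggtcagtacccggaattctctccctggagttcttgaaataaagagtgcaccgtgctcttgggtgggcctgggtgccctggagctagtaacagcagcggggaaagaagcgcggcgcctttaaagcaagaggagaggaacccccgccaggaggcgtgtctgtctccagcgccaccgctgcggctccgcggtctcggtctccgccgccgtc
The Grm2 window held 3 GC boxes and the Grin2d and Grik2 windows 0. Their GC contents were 54.4% for Grin2d, 71.2% for Grm2 and 62.8% for Grik2. The median was 52.4% over all promoters and 58.8% over the promoters of members. The core of the cyclic AMP response element (TGACG, both strands, no overlap with the GC box) was in none of the 3. Over all 32851 promoters, 32.7% held a GC box and 17.8% this core. Of 46 promoters of 31 members, 19 held a GC box (41.3%) and 5 the core (10.9%). These matches describe letters in a window and were not tested against the expression data.

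Just outside the threshold lay Nlgn2, Homer1 and Shank1 (adjusted p 0.0553, 0.0588 and 0.0782), and Grin2c (log2 0.25, adjusted p = 0.092). Nlgn2 encodes a neuroligin of inhibitory synapses, Homer1 a scaffold whose short form is induced by activity, and Shank1 a large scaffold of the density's deeper layer. In knockout, Nlgn2 stood at 195, 203 and 211 CPM after VPA against 191, 196 and 181 CPM without it, and in wildtype at 218, 224 and 207 CPM after VPA against 194, 187 and 184 CPM without it. Homer1 had 108, 120 and 108 CPM in exposed and 123, 146 and 155 CPM in unexposed knockout libraries, and 154, 129 and 107 CPM in exposed and 147, 144 and 147 CPM in unexposed wildtype libraries. The level of Shank1 was 947, 754 and 764 CPM in exposed against 650, 669 and 682 CPM in unexposed knockout, and 689, 730 and 833 CPM in exposed against 776, 706 and 651 CPM in unexposed wildtype. The exposed libraries stood apart for Nlgn2 in wildtype and for Homer1 and Shank1 in knockout. Averaged log2 fold changes were 0.15 for Nlgn2, -0.25 for Homer1 and 0.19 for Shank1. In all, 12 of the 45 genes had an unadjusted p under 0.05 (26.7%), against 21.8% of all tested genes, and the median log2 fold change was 0.06 over the members and 0.01 over all genes.

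By family, no AMPA subunit, auxiliary subunit or scaffold gene was called after VPA. The 4 AMPA subunit genes had log2 fold changes of -0.12 to 0.02. All 3 auxiliary subunit genes (0.05 to 0.13), all 4 SAPAP genes (0.04 to 0.13) and all 3 Shank genes (0.04 to 0.19) had positive values, and the PSD-95 family ran from -0.07 to 0.06. Among NMDA subunits 5 of 6 were positive and Grin2d was called. Of 5 kainate subunits 3 were positive and Grik2 was called in the other direction. The 6 metabotropic receptors split evenly by sign, with a call at each end.

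The wider pathway was read from 77 companion genes, of which 75 were tested: other glutamate receptor, auxiliary, postsynaptic density and adhesion genes. Here 7 passed in the averaged comparison (9.33%), 3 upwards and 4 downwards. Neto1 and Neto2, the auxiliary subunits of kainate receptors, fell as their partner gene Grik2 did. Neto2 had 34, 39 and 34.5 CPM in exposed against 49, 48.7 and 41.7 CPM in unexposed knockout, and 44, 39.2 and 36.3 CPM in exposed against 49.2, 53.5 and 54.1 CPM in unexposed wildtype. Its groups did not overlap in either genotype, and it fell 1.3-fold (log2 -0.38, adjusted p = 0.00132). Neto1 fell 1.17-fold (log2 -0.23, adjusted p = 0.00937), with group means of 58.7 CPM in exposed and 72.7 CPM in unexposed knockout and 68 CPM in exposed and 75.3 CPM in unexposed wildtype. The AMPA receptor auxiliary gene Cacng4 (log2 -0.21) and the adhesion gene Slitrk4 (-0.30) also fell. The pentraxin receptor gene Nptxr (0.24) and the adhesion gene Lrrc4 (0.16) rose.

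Other features of the libraries moved with these comparisons. Marker calls and log2 values are first given for VPA averaged over genotypes. Of 12 marker genes of striatal projection neurons 7 fell and all 12 had negative log2 values after VPA (median -0.46). Their summed level was 1452 to 1754 CPM in exposed knockout, 1597 to 2409 CPM in unexposed knockout, 1345 to 1504 CPM in exposed wildtype and 2092 to 2200 CPM in unexposed wildtype. Of 8 markers of GABAergic interneurons Gad1 and Gad2 fell, while the median log2 value of the list was -0.05 and 3 of the 8 were positive. The 8 summed to 459 to 556 CPM in exposed and 605 to 629 CPM in unexposed knockout. In wildtype they summed to 463 to 593 CPM in exposed and 576 to 721 CPM in unexposed libraries. Gad1 was the highest of the list at 145 to 302 CPM. Of 6 tested markers of olfactory bulb neurons all 6 had negative values (median -1.34) and Synpr fell (log2 -0.51). The 7 listed markers summed to 132 to 163 CPM in exposed and 172 to 252 CPM in unexposed knockout, and to 126 to 137 CPM in exposed and 186 to 312 CPM in unexposed wildtype, without overlap between exposed and unexposed libraries. Most of this sum was Synpr (112 to 207 CPM over the libraries). Cdhr1 and Doc2g were high only in unexposed wildtype replicate 3 (37.1 and 32.1 CPM) and unexposed knockout replicate 3 (24.7 and 20.7 CPM). In the other libraries, exposed or not, Cdhr1 was at 4.76 to 9.19 CPM and Doc2g at 2.92 to 8.35 CPM. Of 8 markers of cortical excitatory neurons the vesicular glutamate transporter gene Slc17a7 and Nrn1 rose. All 8 astrocyte markers had positive values (0.07 to 0.16) and 0 passed, with sums of 4910 to 6219 CPM in exposed and 4754 to 5357 CPM in unexposed knockout, and of 5042 to 5933 CPM in exposed and 4507 to 5126 CPM in unexposed wildtype. The microglial marker Csf1r rose (0.18) and the endothelial marker Itm2a fell (-0.22). In the lists for choroid plexus, blood, hippocampal, thalamic and cerebellar neurons, oligodendrocytes and their precursors 0 markers passed, with all 8 choroid plexus markers positive (median 0.29) and all 5 blood markers negative (median -0.44). Choroid plexus markers summed to 2605 to 3135 CPM in exposed knockout, 1819 to 1973 CPM in unexposed knockout, 1344 to 2639 CPM in exposed wildtype and 1319 to 2050 CPM in unexposed wildtype. No marker of these lists was at 0 in all libraries. For the VPA effect in knockout minus that in wildtype, all tested striatal, olfactory bulb, choroid plexus and blood markers were positive. Median log2 values were 0.34, 0.82, 0.82 and 0.62, and 0 passed. In exposed knockout against exposed wildtype these lists were again all positive (medians 0.16, 0.37, 0.79 and 0.67). There 1 choroid plexus and 1 interneuron marker passed. The other lists were mixed in sign in both comparisons. The part of these markers in the changes of the glutamate receptor genes was not tested.

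The 5 calls depended on the libraries and on an offset for GC content and length. Without both libraries lacking Xist 1 of the 45 genes passed (Lrrtm2, log2 -0.26, adjusted p = 0.0465, with 0.000149 to 0.155 over 23 alternatives), and with a term for those libraries 0 did. The log2 fold changes with that term were 0.26 for Grin2d, 0.28 for Grm2, -0.22 for Grik2, -0.15 for Grm5 and -0.25 for Lrrtm2. Without the 2 libraries with the highest mitochondrial share Grik2 and Grin2d passed together with Nlgn2. With an offset for GC content and length, chosen after the data were seen, 0 of 45 passed, at log2 0.15 for Grin2d, 0.20 for Grm2, -0.15 for Grik2, -0.13 for Grm5 and -0.17 for Lrrtm2. The offset was fitted to these same libraries without regard to group. It therefore also takes out any VPA difference that goes with GC content or length, whatever its source. Of the companion genes, Neto2 passed in all 4 of these settings (adjusted p at most 0.0401). With the offset Cacng4 (adjusted p = 0.00597) and Lrrc4 (0.0496) passed as well, while Neto1, Slitrk4 and Nptxr did not (0.134 to 0.226). In the other settings Nptxr passed each time (edgeR adjusted p 0.00695 to 0.0405), and Lrrc4 and Slitrk4 never did (0.0858 to 0.155). Cacng4 and Neto1 missed the threshold there only with the term for libraries lacking Xist (0.0554 and 0.0679).

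The GC content of the members went with their change after VPA. It ran from 36.8% for Gria2 to 65.1% for Cacng8 in the longest annotated transcript. Across the 45 genes the Pearson correlation of GC content with the log2 fold change was 0.79 in knockout and 0.14 in wildtype, against 0.27 and 0.09 across all 17678 genes with a length and GC value. The members with the lowest GC content, Gria2, Homer1, Grik2, Lrrtm2, Nlgn1 and Gria3 (36.8% to 39.8%), had log2 fold changes in knockout of -0.10 for Gria3 to -0.39 for Lrrtm2. At the other end Grin2d at 65.0% had 0.51, Dlgap3 at 63.9% had 0.27 and Cacng8 had 0.06. In each library on its own, the members' deviation from the mean over libraries correlated with GC at 0.49, 0.62 and 0.81 in exposed knockout and at -0.29, -0.59 and -0.64 in unexposed knockout. The values were -0.42, -0.16 and 0.50 in exposed wildtype and 0.21, -0.23 and -0.41 in unexposed wildtype. Genes share their libraries and are no independent replicates, so these values describe the libraries. The relation was not limited to VPA: for the members the correlation was 0.64 for knockout against wildtype after VPA, -0.51 for knockout against wildtype without VPA and 0.66 for the difference of the VPA effects between the genotypes, against 0.13, -0.07 and 0.14 over all genes. With the offset the correlation for VPA in knockout was 0.30. What gave this relation was not tested.

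**Figure D3:**
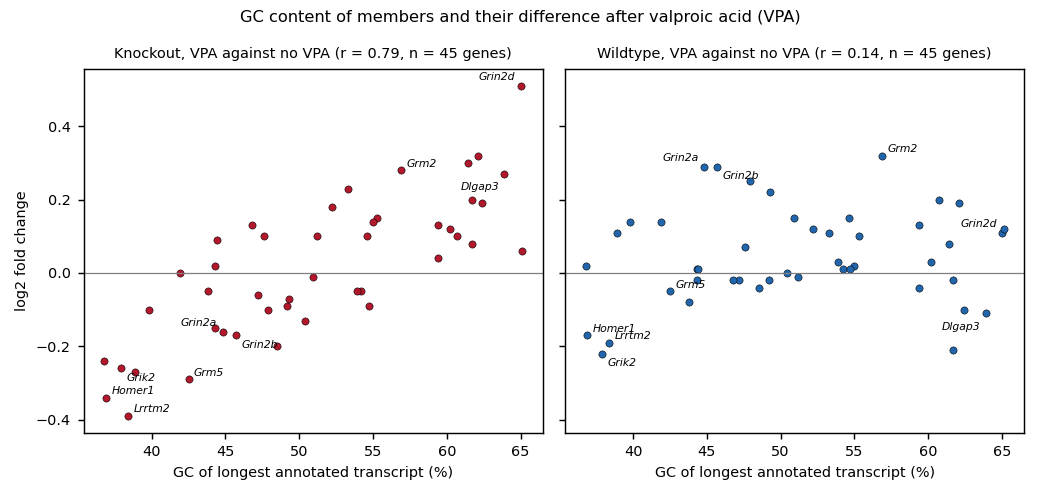
GC content of the longest annotated transcript of each of the 45 genes in percent against its log2 fold change after VPA, in knockout on the left and wildtype on the right. In knockout the points climb from Lrrtm2 and Homer1 at low GC to Grin2d at 65.0% (r = 0.79), and in wildtype they show little slope (r = 0.14).

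Within each genotype alone, 0 of the 45 genes passed the test, at backgrounds of 0.0556% called in knockout (10 of 17995) and 0.895% in wildtype (161 of 17995). At an unadjusted p under 0.05 there were 15 members in knockout (33.3%, against 14.9% of all genes) and 8 in wildtype (17.8%, against 14.2%). DESeq2 called Grin2d, Grm5 and Lrrtm2 in knockout (193 of 17995 genes called) and 0 members in wildtype (333 of 17995). The genes nearest the threshold differed: Grin2d, Lrrtm2 and Grm5 in knockout (adjusted p 0.0593, 0.0701 and 0.0806), and Grin2b in wildtype (log2 0.29 ± 0.08 SE, adjusted p = 0.0883). In knockout all 4 AMPA subunit genes had negative values (-0.24 to -0.10) and all 3 Shank genes positive ones (0.14 to 0.30). In wildtype these families ran from -0.04 to 0.14 and from -0.10 to 0.08. Of the companion genes Lrrc4 rose and Cacng4 and Neto2 fell in wildtype, and 0 passed in knockout.

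**Figure D4:**
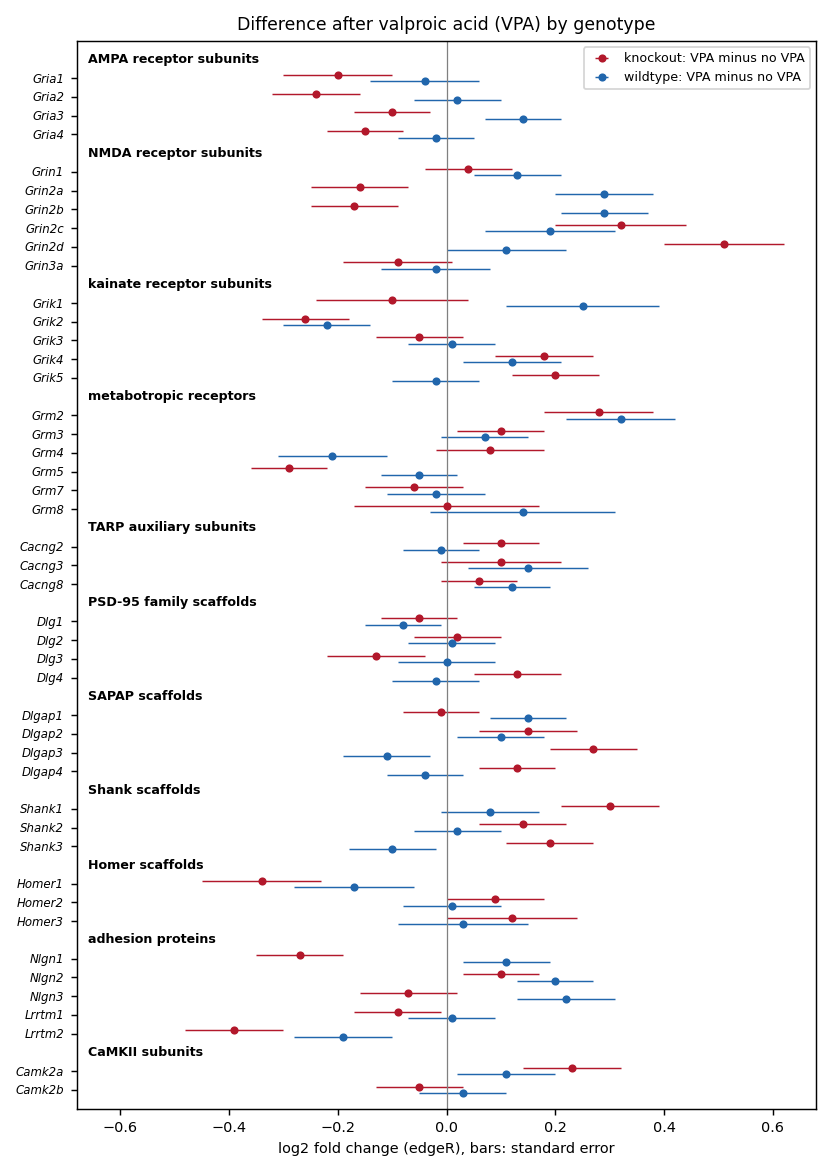
Fitted log2 fold change after VPA of each of the 45 genes, by family, in knockout (red) and wildtype (blue), with bars of 1 standard error. Grik2 and Grm2 lie on the same side of 0 in both genotypes, and Grin2a, Grin2b, Nlgn1 and Dlgap3 lie on opposite sides.

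The difference between the genotypes was tested as an interaction, the VPA effect in knockout minus that in wildtype. Of all 17995 genes 0 passed (0%), and 0 of the 45, while 10 members had an unadjusted p under 0.05 (22.2%, against 5.97% of all genes). The members' interaction values went with their GC content (r = 0.66). DESeq2 also called 0 of the 45. The smallest p-values belonged to Grin2b (log2 -0.45 ± 0.12 SE) and Grin2a (-0.45 ± 0.13), whose GluN2 subunits are known to dominate NMDA receptors of the adult forebrain. Next came the neuroligin gene Nlgn1 (-0.38 ± 0.12) and Dlgap3 (0.38 ± 0.12), and all 4 had an adjusted p of 0.833.

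In knockout, Grin2b stood at 113, 125 and 130 CPM after VPA against 138, 139 and 134 CPM without it, and in wildtype at 157, 169 and 129 CPM after VPA against 126, 115 and 132 CPM without it. Grin2a had 55.9, 65.8 and 63.9 CPM in exposed and 64.6, 71.4 and 72 CPM in unexposed knockout libraries, and 84.2, 85.1 and 65.9 CPM in exposed and 70, 62.1 and 61 CPM in unexposed wildtype libraries. After VPA the knockout libraries were low and exposed wildtype replicates 1 and 2 were high for both genes, while exposed wildtype replicate 3 lay within the unexposed range. In knockout, exposed libraries were below all unexposed ones for Grin2b and overlapped with them for Grin2a. Exposed wildtype replicate 3 lacked Xist and had a mitochondrial share of 16.4%. Without it Grin2a and Grin2b both passed for VPA in wildtype (62 of 17995 genes called). Without both libraries lacking Xist the interaction of Grin2b passed, as 1 of 4 genes called (log2 -0.61, edgeR adjusted p = 0.0491, with 0.0491 to 1 over 23 alternatives).

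The level of Nlgn1 was 31.4, 35.6 and 34.4 CPM in exposed against 43.6, 39.8 and 39.3 CPM in unexposed knockout, and 45.4, 43.1 and 39.1 CPM in exposed against 38.9, 36.4 and 42.8 CPM in unexposed wildtype. In knockout, Dlgap3 stood at 986, 928 and 940 CPM after VPA against 816, 774 and 776 CPM without it, and in wildtype at 784, 798 and 884 CPM after VPA against 974, 931 and 763 CPM without it. Gria3 had 124, 126 and 126 CPM in exposed and 128, 143 and 132 CPM in unexposed knockout libraries, and 150, 139 and 135 CPM in exposed and 130, 134 and 121 CPM in unexposed wildtype libraries. Nlgn1 acts at excitatory synapses, Dlgap3 is a SAPAP gene with high expression in the striatum, and Gria3 is an X-linked AMPA subunit gene. For all 3 the exposed knockout libraries were separate from the unexposed ones, downwards for Nlgn1 and Gria3 and upwards for Dlgap3. In wildtype the exposed libraries stood apart for Gria3 alone, on the high side. The interaction of Gria3 was -0.24 (adjusted p = 0.833).

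**Figure D5:**
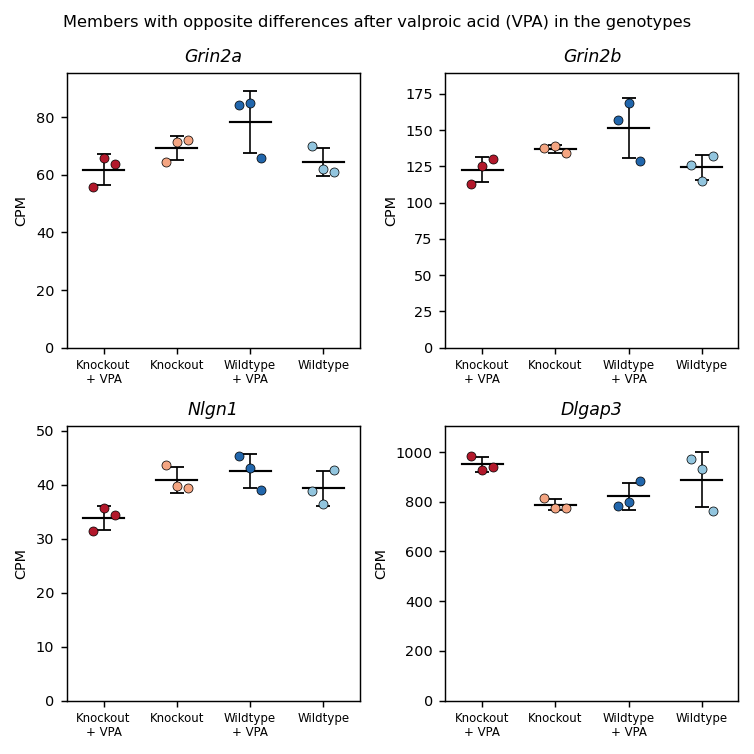
CPM per library of Grin2a, Grin2b, Nlgn1 and Dlgap3, with the mean as a line and the SD as a bar, on axes that start at 0. Exposed knockout lies below unexposed knockout on average for the first 3 and above it for Dlgap3, and exposed wildtype lies on the other side of unexposed wildtype.

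Knockout was set against wildtype to ask what the deletion did to these genes. Without VPA 0 of the 45 passed (background 0.0389%, 7 of 17995) and 3 had an unadjusted p under 0.05 (6.67%, against 3.13% of all genes): Cacng2 (log2 -0.15), Dlgap3 (-0.17) and Grin2d (-0.23), each with an adjusted p of 1. Cacng2 had 68.1, 65.6 and 63.9 CPM in exposed and 59.5, 61.3 and 63 CPM in unexposed knockout libraries, and 71.1, 67.2 and 64.2 CPM in exposed and 70.8, 69.6 and 63.4 CPM in unexposed wildtype libraries. Cacng2 encodes stargazin, and the unexposed knockout libraries were below all unexposed wildtype ones. The level of Grm4 was 24.5, 23.4 and 29.8 CPM in exposed against 26.4, 23.8 and 23.3 CPM in unexposed knockout, and 21.4, 25.9 and 24.1 CPM in exposed against 26, 26.3 and 30.3 CPM in unexposed wildtype. For this group III autoreceptor gene the knockout and wildtype libraries overlapped (log2 -0.17 without VPA, adjusted p = 1).

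After VPA 0 of the 45 passed between knockout and wildtype (background 0.05%, 9 of 17995), and 10 had an unadjusted p under 0.05 (22.2%, against 7.44% of all genes), with the GC relation at r = 0.64. The smallest p-values were those of Nlgn1 (log2 -0.33 ± 0.08 SE, adjusted p = 0.289), Grin2a (-0.34, 0.36), Grin2b (-0.31, 0.367), Grm5 (-0.21, 0.484) and Gria3 (-0.17, 0.547). Exposed knockout libraries were all below exposed wildtype libraries for Nlgn1, Grin2a, Grm5 and Gria3, and overlapped with them for Grin2b. For Grin2a they barely separated, at 65.8 CPM in exposed knockout replicate 2 against 65.9 CPM in exposed wildtype replicate 3. This comparison and the VPA comparisons share the exposed libraries. Averaged over treatments 0 of the 45 passed (background 0.05%), 1 had an unadjusted p under 0.05 (Nlgn1, log2 -0.14; 2.22% of members against 4.42% of all genes) and 31 of 45 values were negative (68.9%, against 50.2%). DESeq2 called 0 members in each of these 3 comparisons.

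Ratios of paired subunits within a library do not depend on library scaling, and 5 were tested by exact two-sided permutation of the treatment labels within genotype. GC content can differ within a pair: 56.9% for Grm2 and 47.6% for Grm3, 36.9% for Homer1 and 44.4% for Homer2, 48.5% for Gria1 and 36.8% for Gria2. It was near equal for Grin2a and Grin2b and for Camk2a and Camk2b. The ratios were not run with the GC and length offset, and the part of GC content in them was not tested. The ratio of Grm2 to Grm3, the other group II receptor gene and one also active in glia, was higher after VPA by 0.23 on the log2 scale. The exact permutation p was 0.005, the smallest that 400 relabellings allow, and 0.025 after adjustment over the 5 ratios. Its log2 values were -0.66, -0.64 and -0.52 in exposed against -0.66, -0.91 and -0.84 in unexposed knockout, and -0.73, -0.70 and -0.54 in exposed against -0.85, -0.96 and -0.94 in unexposed wildtype. In each genotype every exposed library was above the unexposed ones, although in knockout exposed and unexposed replicate 1 were equal after rounding (-0.66). Without both libraries lacking Xist the difference was 0.18 (exact permutation adjusted p = 0.1, with 0.0125 to 0.156 over 14 alternatives). That setting leaves 100 relabellings and a smallest p of 0.01, which adjusts to 0.05 for 1 ratio alone and so could not pass. The exact permutation p there was 0.02, above that smallest value, so the ratio also weakened. In knockout, Grm3 stood at 59.3, 53.8 and 50.8 CPM after VPA against 54.3, 46.4 and 52.6 CPM without it, and in wildtype at 54.5, 51.6 and 51.4 CPM after VPA against 54.1, 49 and 47.1 CPM without it. Grm3 itself overlapped between groups in each genotype.

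The ratio of Homer1 to Homer2 was lower after VPA, with a log2 difference of -0.31 (exact permutation p = 0.025, adjusted p = 0.0625) and did not pass. The level of Homer2 was 99.6, 87.9 and 80.4 CPM in exposed against 74.4, 81.9 and 95.6 CPM in unexposed knockout, and 79.5, 82.3 and 94 CPM in exposed against 86.5, 85 and 81.5 CPM in unexposed wildtype. The log2 values of the ratio were 0.11, 0.45 and 0.43 in exposed against 0.72, 0.83 and 0.70 in unexposed knockout, and 0.95, 0.65 and 0.19 in exposed against 0.77, 0.76 and 0.85 in unexposed wildtype. The knockout groups were separate, and the exposed wildtype libraries spread on both sides of the unexposed ones.

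The other ratios did not pass the test. The difference was 0.18 for Camk2a to Camk2b (exact permutation adjusted p = 0.25), -0.02 for Gria1 to Gria2 (adjusted p = 1) and 0.00 for Grin2a to Grin2b (adjusted p = 1). Camk2a had 6200, 5151 and 5123 CPM in exposed and 4673, 4555 and 4849 CPM in unexposed knockout libraries, and 4781, 4975 and 5844 CPM in exposed and 5185, 4883 and 4412 CPM in unexposed wildtype libraries. The level of Camk2b was 550, 614 and 668 CPM in exposed against 653, 638 and 600 CPM in unexposed knockout, and 631, 652 and 599 CPM in exposed against 621, 616 and 611 CPM in unexposed wildtype. Camk2a was higher in all exposed than in all unexposed knockout libraries (log2 0.23, adjusted p = 0.246), and Camk2b overlapped in both genotypes. In knockout, Gria1 stood at 259, 273 and 312 CPM after VPA against 306, 334 and 334 CPM without it, and in wildtype at 298, 369 and 279 CPM after VPA against 320, 288 and 368 CPM without it. Gria2 had 312, 312 and 316 CPM in exposed and 334, 395 and 382 CPM in unexposed knockout libraries, and 376, 378 and 323 CPM in exposed and 337, 369 and 353 CPM in unexposed wildtype libraries. Exposed knockout libraries were below unexposed ones for Gria2, whose product makes AMPA receptors nearly impermeable to calcium (log2 -0.24, adjusted p = 0.154), and overlapped with them for Gria1. The level of Grik5 was 325, 306 and 312 CPM in exposed against 274, 283 and 266 CPM in unexposed knockout, and 283, 277 and 314 CPM in exposed against 316, 314 and 255 CPM in unexposed wildtype. Grik5 stood higher in the exposed than in the unexposed knockout (log2 0.20, adjusted p = 0.236) with no difference in wildtype beyond the spread.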

How the data were processed

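The authors deposited raw read counts per Ensembl gene for 12 libraries, without normalisation. Per the labels' protocols, total RNA was depleted of ribosomal RNA and made into libraries with an NEB Next Ultra kit. Per the submitters' processing notes, reads were aligned with HISAT2 to GRCm39; no source used here names the counting program, the annotation or strand handling. Symbols, lengths and GC content came from an annotation on GRCm38, so no gene positions are given beyond 3 RefSeq promoter windows on GRCm38.p6; 52073 of 56748 identifiers matched, with 99.51% of counts.

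Genes were kept by filterByExpr (17995) and fitted with edgeR 4.0.16 (R 4.3.3, TMM factors 0.93 to 1.02, robust quasi-likelihood, 1 mean per group, 12 libraries). For 7 contrasts, two-sided p-values were adjusted by Benjamini-Hochberg across the 17995 genes (threshold 0.05). SEs come from the F statistic. Ratios used exact permutation. Methods were tested on simulated data. DESeq2 1.42.0 and limma 3.58.1 served alternatives: other scaling, filters, a replicate block, a term for libraries lacking Xist, and each library left out. The members, the companion and marker lists, and the naming rule were chosen with earlier results of these data known. The rule named members past any test, the 5 smallest p-values per contrast, the highest per-length member of each family and the genes of the ratios; Grin2c, named as just outside the threshold, was chosen after its values were seen. The GC and length offset and the removal of the 2 libraries highest in mitochondrial counts were added after seeing the data. Library totals (16887885 to 24944681) limit precision; the lowest count of any member was 99. The values of 1 companion gene counted among those past the test are not reported here.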

Additional observations from a re-analysis of the deposited data

Results flagged for a closer look

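For 4 of the 45 genes (8.89%, against 2.33% of all tested genes) the interaction had an unadjusted p under 0.05, and all 3 exposed libraries lay on one side of the unexposed mean in knockout and all 3 on the other side in wildtype. None passed the adjusted test of the difference. These were Grin2b (interaction log2 -0.45), Grin2a (-0.45), Dlgap3 (0.38) and Gria3 (-0.24), each from edgeR with an adjusted p of 0.833. Values of Grin2a, Grin2b and Gria3 lay lower after VPA in knockout and higher in wildtype, and those of Dlgap3 higher in knockout and lower in wildtype. The kainate subunit gene Grik1 showed the same placing of libraries without an interaction at that p, so 5 members had it (11.1%, against 5.85% of all tested genes). With the GC and length offset the interactions were -0.37 for Grin2b, -0.36 for Grin2a, 0.25 for Dlgap3 and -0.14 for Gria3, each smaller and in the same direction (adjusted p = 0.966).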

How the results depend on the processing

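The number of the 45 genes past the test for VPA averaged over genotypes, 5, became 8 with DESeq2's Wald test, 8 without a count filter, 9 at a threshold of 0.1, 0 with the GC and length offset, 0 with a term for libraries lacking Xist, 1 without both of those libraries and 3 without the 2 libraries highest in mitochondrial counts. Over all genes 1078 became 1258 with DESeq2, 1453 without a filter (33793 tested) and 1894 at 0.1. The number was 245 with the offset, 172 with the term, 298 without both libraries and 359 without the highest mitochondrial shares. Other library size factors (RLE) and removal of the 20 highest genes each left the same 5 members (1070 and 1080 genes). Leaving out each library gave 3 to 6 members, with 3 without wildtype replicate 3 (426 genes) and 3 without exposed knockout replicate 3 (600 genes).

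For VPA in wildtype, 0 members (161 of all genes) became 3 without a filter (512 genes) and 1 at 0.1 (456 genes). There were 2 without both libraries lacking Xist (40 genes) and 2 without the highest mitochondrial shares (134 genes). Leaving out single libraries gave 0 to 2, with 2 without exposed wildtype replicate 3 (62 genes). For VPA in knockout, 0 members (10 of all genes) became 3 with DESeq2 (193 genes), 7 without a filter (391 genes) and 3 at 0.1 (176 genes). It was 0 to 4 with each library left out, with 1 without wildtype replicate 3 (48 genes) and 4 without exposed wildtype replicate 3 (162 genes). For knockout after VPA, 0 members (9 of all genes) became 3 without a filter (60 genes) and 2 without both libraries lacking Xist (29 genes). There was 1 without the highest mitochondrial shares (26 genes). Leaving out single libraries gave 0 to 3, with 3 without exposed wildtype replicate 3 (86 genes). The interaction had 1 without both libraries lacking Xist (4 of all genes). The cause was not tested.

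Among ratios, Grin2a to Grin2b ran from -0.04 to 0.03 and Gria1 to Gria2 from -0.08 to 0.03 with each library left out, changing sign; the first was 0.01 without both libraries lacking Xist. Homer1 to Homer2 ran from -0.40 to -0.21 and passed without exposed wildtype replicate 1 (-0.40, exact permutation adjusted p = 0.0125, with 0.0125 to 0.234 over 14 alternatives). Grm2 to Grm3 ran from 0.20 to 0.26 and missed the threshold without each exposed knockout library (adjusted p = 0.05) and without both libraries lacking Xist (0.18). Grm5 in wildtype ran from -0.12 to 0.01, and was 0.01 without exposed wildtype replicate 3, without both libraries lacking Xist and without the highest mitochondrial shares. Over all named genes and alternatives, 1051 values kept their direction and side of the threshold, 93 lost and 30 gained a call, and the 3 of Grm5 changed sign.

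Over all groups, replicate numbers did not set pairs apart. Deviations of same-numbered libraries correlated at -0.06 to 0.11 over 18 pairs, and those of other-numbered libraries at -0.12 to 0.11 over 36. Between unexposed knockout and unexposed wildtype, same-numbered libraries correlated at 0.06, 0.09 and 0.11, and the others at -0.10 to 0.02. Whether the unexposed libraries were handled in pairs is not known. With the replicate number as a block, the averaged VPA test called the same 5 members and 876 genes, and the ratio of Grm2 to Grm3 was 0.23 with an exact permutation p of 0.0312 (adjusted p = 0.156). With 64 relabellings that is the smallest p the block allows, so this ratio alone could not pass, and the loss of its call says nothing about stability.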
